A study of Mus musculus with 6 samples.

Results

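The widest accessible domains of mouse small-intestinal crypts were taken as the 500 autosomal ATAC-seq peaks of largest width, out of 122141 autosomal peaks and 123510 peaks in all. They were chosen by width alone (peak end minus start plus 1, ties ordered by start and then by chromosome), and width was itself set by the same reads that give the signal, so widths and signal levels are given as a description. ATAC-seq marks open chromatin by the DNA that a transposase can cut. There were 3 libraries from wild-type (WT) mice and 3 from mice carrying floxed Smarcad1 and Cre under the Villin promoter (KO), in the C57BL/6 background, and male per the study's methods. Each library was made from about 50000 crypt cells, and the ages and the floxed status of the WT mice are not given in the sources used here. The Villin promoter drives Cre in the intestinal epithelium, so that any other cell in the preparation keeps Smarcad1. In such bulk libraries, fewer cells of a type and less accessibility per cell cannot be told apart. No label says whether the 3 libraries of a group came from separate litters or preparation days.

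Broad accessible domains in other tissues are known mainly from CpG-rich promoters, where unmethylated CG dinucleotides keep nucleosome occupancy low, and from clustered enhancers of genes that define a cell's identity. Crypts hold the intestinal stem cells and their dividing progeny, whose fate is set by Wnt and Notch signals and by transcription factors such as Cdx2. Smarcad1 is a chromatin remodeler of the SNF2 family.

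Sequences of 7 of the domains show the range of base composition among them. The first 5 are gene starts inside a domain, from 250 bases before to 50 after the start, taken from RefSeq (GRCm38) on the strand of the gene. The last 2 are the central 300 bases of a domain away from gene starts, on the plus strand of GRCm38. They are Elf3 (chr1:135258423-135258722, minus strand), Zbtb2 (chr10:4388059-4388358, minus strand), Ets2 (chr16:95702157-95702456, plus strand), Cdx2 (chr5:147307200-147307499, minus strand), Opn3 (chr1:175692583-175692882, minus strand), the centre of the Sp110 domain (chr1:85591876-85592175) and the centre of the Anpep domain (chr7:79826701-79827000). Capitals mark CG dinucleotides.
Elf3 gene start: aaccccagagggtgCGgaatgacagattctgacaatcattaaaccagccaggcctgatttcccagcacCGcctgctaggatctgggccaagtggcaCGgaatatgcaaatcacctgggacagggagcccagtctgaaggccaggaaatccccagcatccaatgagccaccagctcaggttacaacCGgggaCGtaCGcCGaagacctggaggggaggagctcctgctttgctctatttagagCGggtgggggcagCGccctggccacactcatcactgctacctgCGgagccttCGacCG
Zbtb2 gene start: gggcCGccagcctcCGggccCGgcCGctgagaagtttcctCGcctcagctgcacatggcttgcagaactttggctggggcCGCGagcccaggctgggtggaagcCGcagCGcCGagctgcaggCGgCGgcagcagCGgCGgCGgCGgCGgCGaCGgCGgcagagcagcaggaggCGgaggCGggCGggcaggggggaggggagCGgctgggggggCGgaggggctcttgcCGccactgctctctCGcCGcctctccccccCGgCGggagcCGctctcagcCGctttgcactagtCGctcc
Ets2 gene start: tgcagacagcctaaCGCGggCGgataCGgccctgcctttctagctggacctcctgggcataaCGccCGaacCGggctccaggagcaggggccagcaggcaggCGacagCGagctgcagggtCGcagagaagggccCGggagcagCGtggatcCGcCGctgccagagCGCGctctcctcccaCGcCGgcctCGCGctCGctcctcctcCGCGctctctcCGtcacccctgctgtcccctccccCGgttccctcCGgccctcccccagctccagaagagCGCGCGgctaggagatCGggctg
Cdx2 gene start: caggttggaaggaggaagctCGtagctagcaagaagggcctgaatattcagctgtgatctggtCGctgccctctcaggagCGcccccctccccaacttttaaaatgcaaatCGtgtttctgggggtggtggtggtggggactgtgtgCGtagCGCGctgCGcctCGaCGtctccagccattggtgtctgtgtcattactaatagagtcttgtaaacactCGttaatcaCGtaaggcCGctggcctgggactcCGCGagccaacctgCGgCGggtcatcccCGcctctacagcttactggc
Opn3 gene start: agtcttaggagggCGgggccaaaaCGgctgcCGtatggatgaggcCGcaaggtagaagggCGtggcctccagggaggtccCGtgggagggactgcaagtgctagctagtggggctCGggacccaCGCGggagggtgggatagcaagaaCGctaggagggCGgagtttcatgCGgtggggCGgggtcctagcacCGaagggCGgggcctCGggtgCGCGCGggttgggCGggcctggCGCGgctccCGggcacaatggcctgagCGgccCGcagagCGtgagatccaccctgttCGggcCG
Sp110 domain centre: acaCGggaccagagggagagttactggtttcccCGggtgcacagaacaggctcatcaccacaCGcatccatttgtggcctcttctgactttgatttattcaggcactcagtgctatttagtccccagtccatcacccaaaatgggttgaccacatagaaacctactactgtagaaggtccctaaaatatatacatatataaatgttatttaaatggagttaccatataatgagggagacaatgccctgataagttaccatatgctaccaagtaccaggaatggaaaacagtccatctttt
Anpep domain centre: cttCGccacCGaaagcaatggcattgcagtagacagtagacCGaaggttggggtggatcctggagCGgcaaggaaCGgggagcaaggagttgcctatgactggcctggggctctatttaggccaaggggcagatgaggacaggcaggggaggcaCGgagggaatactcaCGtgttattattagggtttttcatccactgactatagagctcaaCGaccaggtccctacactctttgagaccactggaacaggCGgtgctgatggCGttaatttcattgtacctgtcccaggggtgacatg
The Zbtb2 start, in 1 of the widest domains, had 33 CG dinucleotides, the Ets2 start 30, the Opn3 start 28, the Cdx2 start 18 and the Elf3 start 12. The centre of the Sp110 domain had 3 and that of the Anpep domain 10. In all, 429 RefSeq gene starts of 352 genes lay wholly inside a domain, with a median of 22 CG dinucleotides in 300 bases (quartiles 14 and 31), beside a median of 7 (quartiles 3 and 21) over all 31396 autosomal RefSeq gene starts. That background was not limited to starts with a peak. In the central 300 bases, domains at gene starts had a median of 13 CG dinucleotides, beside 15 in all autosomal peaks at gene starts. By that measure CG richness was not particular to the widest peaks.

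The libraries held 6180717 to 16301164 reads in peaks for WT and 4339306 to 7721797 for KO, and WT3 was by far the deepest. Every domain held at least 50 reads in every library, and the median domain held 245 (KO3) to 864 (WT3) reads. The targeted gene could be checked only outside its floxed exons: the 4 peaks named for Smarcad1 differed by -0.14 to -0.01 on the log2 scale between KO and WT, and none is among the 500 domains. No peak lay over any of the floxed exons 12 to 14 (chr6:65092495-65094365), so that the deletion cannot be read from these peaks. Of 9 epithelial marker genes, Cdh1, Krt18, Cdx2, Lgr5 and Olfm4 had a peak within 1 kb of the gene start (115 to 228 normalised reads per kb in WT), and Epcam, Krt8, Krt19 and Vil1 had none. Of 18 immune markers 3 had such a peak (64 to 108 per kb), and of 18 stromal, endothelial, muscle and glial markers 7 (65 to 103 per kb).

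Peak widths came in steps of 150 bp, with a median of 750 bp over autosomal peaks. The 500 domains spanned 3450 to 59250 bp with a median of 3750 bp. They made up 0.409% of autosomal peaks and 1.84% of the bases in them (1957 kb). The threshold fell inside a tie: 433 peaks were wider than 3450 bp, and 67 of the 186 autosomal peaks of exactly 3450 bp were taken by the order of their starts. Among the last 5 taken were those named for Gnpnat1, Irf2 and Peli2 and 1 without a gene name (109 to 215 normalised reads per kb in WT). The first 5 left out, of the same width, were named for Tnfaip8l1, Fgf9, Ubqln1, Tsc22d2 and Fzd7 (176 to 245 per kb). Membership at the margin is therefore a matter of position and not of signal. Chromosome 7 held the most domains (45) and chromosome 16 the fewest (17).

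**Figure D1:**
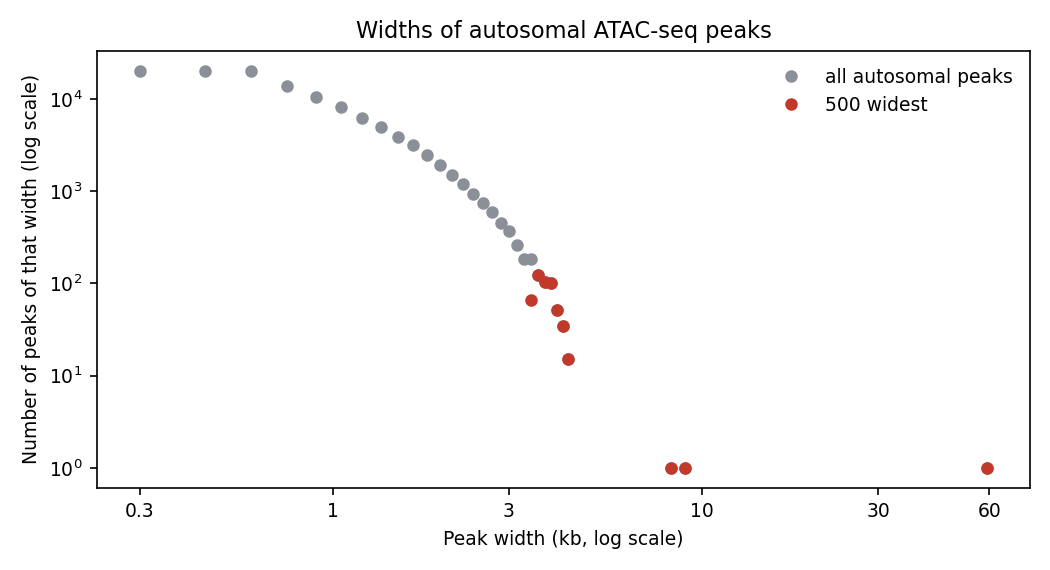
Number of autosomal peaks at each width, in 150-bp steps, on log scales. Grey points are all autosomal peaks and red points the 500 widest, and 3 domains lie beyond 4350 bp while 186 peaks share the threshold width of 3450 bp.

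Only 3 domains were wider than 4350 bp, and 15 were exactly that wide. The widest, at chr1:88211251-88270500 (GRCm38), was a single peak of 59250 bp named for Ugt1a10. It ran over the whole of Ugt1a1, the glucuronosyltransferase that conjugates bilirubin, with the exons that the Ugt1a genes share, then over the whole of Mroh2a and into the end of Hjurp, a chaperone of the centromeric histone. Its signal was 271, 307 and 291 normalised reads per kb in WT1, WT2 and WT3 and 296, 307 and 320 in KO1, KO2 and KO3. The 6 libraries thus lay close together over the whole domain, and the KO range overlapped the WT range. Its log2 value in WT2 minus the mean of the other WT libraries was 0.13, beside a median of -0.44 over the domains. For KO2 the same difference was -0.002, beside -0.62. Peaks were not filtered here for copy number or mappability, and whether all 59250 bp are open chromatin was not tested. The 6 peaks that lie in the 50 kb before it, within the Ugt1a cluster, were 600 to 1050 bp wide with 69 to 171 per kb in WT. The domain was 14% repeat sequence and had a GC content of 48.2%.

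The second, at chr1:135250501-135259500, was 9000 bp wide and held the whole 4994-bp gene Elf3, an ETS factor needed for the differentiation of the intestinal epithelium. Its signal was 213, 237 and 262 per kb in WT and 240, 184 and 311 per kb in KO, the highest and the lowest values both being KO. The third, at chr3:153776551-153784800, was 8250 bp wide and covered no annotated exon. It lay 4505 bp upstream of the transcript 5730460C07Rik, for which it was named, and 253 bp from the nearest annotated gene start. Its 103 ± 28 per kb in WT (SD, n = 3) was close to the median of all autosomal peaks (88.1 per kb), and the KO mean was 96.2 ± 27.2 per kb (SD, n = 3). It was therefore wide without being strong.

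The 7 next in order, all 4350 bp wide, were those named for Zbtb2, Calm3, E2f3, Mrps18b, Klf10, B430305J03Rik and Idh1. Calm3 encodes calmodulin, E2f3 a transcription factor of the G1 to S transition, and Klf10 a zinc finger factor induced by TGF-beta. Their WT means ran from 259 per kb (Idh1) to 526 per kb (Klf10). The Mrps18b domain held the starts of Mrps18b, a mitochondrial ribosomal protein, of Ppp1r10, a regulator of protein phosphatase 1, and of Mir1894. The Idh1 domain, which bears the name of the cytosolic isocitrate dehydrogenase, lay 6100 bp from the nearest annotated gene start.

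Coding genes small enough to be held whole were few: 14 protein-coding genes lay wholly inside 12 domains. Besides Ugt1a1, Mroh2a and Elf3 these were the histone genes Hist1h4a and Hist1h3a, which share a domain of 4050 bp, H2afj, the Wnt-induced factor Sp5, Ppdpf, Aprt (adenine phosphoribosyltransferase), Tmem102, Comtd1, Fbxl15, B430305J03Rik and Gm21738. In the 2807-bp Sp5 gene, the signal was 194, 164 and 215 per kb in WT and 167, 131 and 239 per kb in KO over a domain of 3600 bp.

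Signal per kb is the linear normalised read count of a peak divided by its width. The mean of the 3 WT libraries had a median of 191 per kb over the 500 domains (quartiles 153 and 245, range 73.4 to 697) beside 88.1 per kb over autosomal peaks and 176 per kb over the next 500 by width. By library the median domain had 183, 157 and 230 per kb in WT1, WT2 and WT3 and 190, 147 and 255 per kb in KO1, KO2 and KO3. In all, 492 of the 500 lay above the median of autosomal peaks. Width and strength picked largely different peaks: 12 of the 500 domains were also among the 500 autosomal peaks of highest signal per kb, whose median width was 1800 bp. The domains are 0.409% of autosomal peaks, so that they were more frequent among those 500 than among all autosomal peaks. The median domain stood at percentile 92.2 of autosomal peaks, and 31 domains lay above the 99th percentile (369 per kb). Across autosomal peaks, width and WT signal per kb had a Pearson r of 0.44 over 122141 peaks, which share the reads that set both, and across the domains r was 0.05 over 500.

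The strongest domain was that of Ripk2, the kinase that relays signals from the bacterial sensors NOD1 and NOD2, at chr4:16161451-16165050. It had 783, 379 and 930 per kb in WT and 637, 332 and 954 per kb in KO. WT2 and KO2 were the low libraries there, each well below the others of its group. The domain named for CAAA01154301.1 had a WT mean of 660 ± 171 per kb and that of Sp110, an interferon-induced nuclear body protein, 652 ± 152 (SD, n = 3). The Sp110 domain was 4350 bp wide, lay 4617 bp from the nearest gene start and was 33.2% repeat sequence.

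The other 7 of the 10 strongest had WT means of 491 to 645 per kb. They bore the names of Dnpep (an aspartyl aminopeptidase), Opn3 (an opsin), Rnf5 (a ubiquitin ligase of the endoplasmic reticulum), Klf10, Sp4 (a zinc finger factor that binds GC boxes), Aasdhppt and Bri3. Of these 10 domains 8 held at least 1 annotated gene start, and 5 held more than 1, as with Opn3 and Chml, Rnf5 and Agpat1, and Aasdhppt and Kbtbd3, so that the name gives only 1 of the genes marked. The domain named for Bri3 held the starts of Dmrt1i and Baiap2l1 and not that of Bri3. In the Opn3 domain the 6 values were 673, 346 and 831 per kb in WT and 567, 300 and 941 per kb in KO, and the KO values bracketed the WT values. In the Rnf5 domain they were 576, 549 and 689 per kb in WT and 504, 544 and 630 per kb in KO, where WT2 and KO2 did not stand apart.

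The 5 weakest were an intronic domain of St6galnac3 (73.4 per kb), 1 domain on chromosome 7 without a gene name (77.9), and those of Anpep (78.4), Ntm (79.0) and Tcstv3 (79.6). All 5 lay below the median of autosomal peaks, and none held a gene start. Anpep encodes aminopeptidase N of the enterocyte brush border. Its domain, at chr7:79825051-79828650, had 66.5, 99.1 and 69.7 per kb in WT and 70.2, 118 and 55.4 per kb in KO, so that here the number 2 library was the highest of each group.

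**Figure D2:**
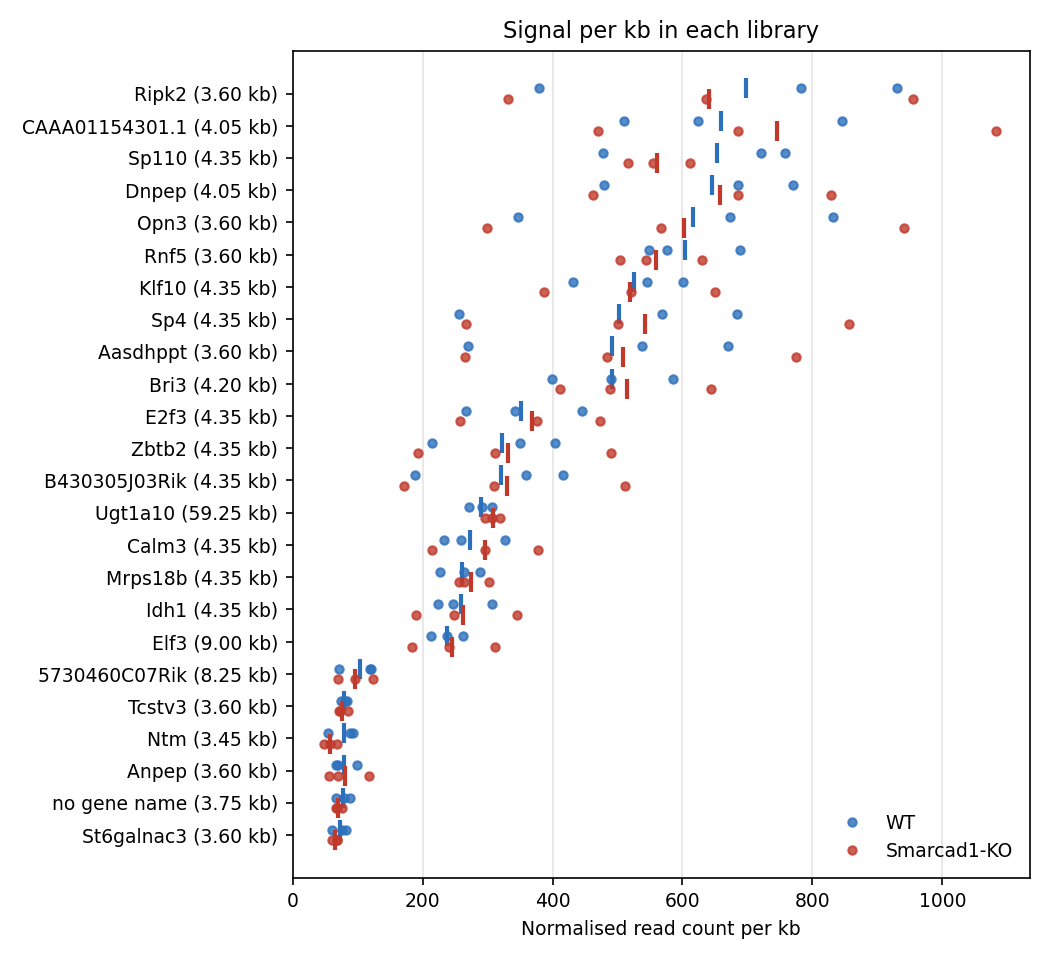
Normalised reads per kb (x axis) in the 3 WT and 3 Smarcad1-KO libraries for the 10 widest, 10 strongest and 5 weakest domains, with the width of each in kb. Dots are libraries and vertical ticks group means, and in the strongest domains such as Ripk2 the libraries of 1 group spread over more than the distance between the groups.

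Most domains bore a gene name. The authors' table named 447 of the 500 (89.4%, beside 49.9% of autosomal peaks), with 437 overlapping the named gene. There were 435 distinct names, 2.48% of the 17544 names carried by any autosomal peak. Only Gm20388, a long predicted gene on chromosome 8, named more than 2 domains: it named 4, with 138 to 204 per kb in WT, of which that at chr8:122574001-122577600 held the whole of Aprt. The names with 2 domains were Atp8a2, Atp8b1, Fgfr2, Hs6st1, Lasp1, Myo10, Nek6, SNORA17 and Tnfrsf14. Domains could lie close together, with 13 pairs of neighbours under 20 kb apart. They include the pairs of Lasp1 (8.70 kb apart), Myo10 (6.15 kb), Atp8a2 (1.65 kb) and Tnfrsf14 (9 kb), and the pair of Emilin1 and Khk (1.35 kb).

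Among intestinal transcription factors, 5 of the 32 genes with a peak had a domain: Cdx2, Elf3, Esrra, Creb3l3 and Maf. Cdx2, which sets intestinal identity, had 212, 183 and 267 per kb in WT and 240, 171 and 329 per kb in KO at chr5:147304051-147307950. Esrra, a nuclear receptor of mitochondrial genes, had the highest WT mean of the 5 (313 ± 41 per kb, SD, n = 3), and Maf the lowest (143 ± 30). Creb3l3, a regulator of lipid genes held in the endoplasmic reticulum, had 217 ± 56 per kb, and its domain lay 5424 bp from the nearest gene start.

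Crypt stem cell and Wnt genes had a domain in 5 of 27 cases, Ets2, Rgmb, Slc12a2, Tcf7l2 and Sp5, and none at Lgr5, Olfm4 or Ascl2. Ets2, an ETS factor of stem cells, had 230, 167 and 282 per kb in WT and 227, 145 and 349 per kb in KO at chr16:95699101-95703450, with the lowest and the highest value again both in KO. Tcf7l2, the main Wnt effector on DNA in the crypt, had its domain 7679 bp from any gene start, with 163 ± 27 per kb in WT and 189 ± 54 in KO (SD, n = 3). Rgmb, a co-receptor for bone morphogenetic proteins, had 308 ± 84 and Slc12a2, a chloride cotransporter of crypt cells, 178 ± 57 per kb in WT.

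Of the Notch and secretory lineage genes only the Notch ligand Dll1 had a domain, 1 of 22 (135, 129 and 158 per kb in WT, 141, 109 and 182 in KO). Enterocyte genes had 3 of 17, namely Myo1a, the brush border myosin (204 ± 22 per kb in WT, SD, n = 3), Ezr, the linker of membrane and actin (172 ± 16), and Anpep. Growth factor feedback and immediate early genes had 3 of 27: Egr1 (229 ± 30), Atf3 (269 ± 44) and Spred2, an inhibitor of ERK signalling (130 ± 34). Epithelial junction and keratin genes had 4 of 20. These were Cdh17 (207 ± 43), F11r (209 ± 43), Itga6 (216 ± 52) and Cdh1, which encodes E-cadherin (104 ± 17, in a domain 4800 bp from the nearest gene start). Cell cycle genes had 1 of 20 (Cdk6, 151 ± 47), chromatin remodeler genes 1 of 17 (Arid1b, 127 ± 27) and housekeeping genes 1 of 8 (Ywhaz, 378 ± 56). None of 10 immune and none of 14 stromal, endothelial, muscle and glial marker genes with a peak had one.

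By gene family, 6 of 38 nuclear receptors had a domain (among them Esrra, Nr1d1, Nr3c1, Nr4a2 and Rara), as did 3 of 15 Krueppel-like factors (Klf10, Klf11 and Klf16), 2 of 19 ETS factors (Elf3 and Ets2) and 15 of 298 solute carriers. In the circadian repressor Nr1d1 the values were 253, 361 and 323 per kb in WT and 335, 348 and 380 per kb in KO, where all KO values exceeded WT1 and WT3 and only KO3 exceeded WT2. Sox factors had 1 of 11 (Sox21), forkhead factors 1 of 27 (Foxo1) and AP-1 and ATF factors 1 of 13 (Atf3). IRF and STAT factors had 1 of 13 (Irf2) and Id, Hes and Hey factors 1 of 11 (Hey1). TCF, LEF and TEAD factors had 1 of 7 (Tcf7l2) and microRNA genes 1 of 53 (Mir203). Zfp genes had 6 of 308 and predicted Gm genes 8 of 1283. GATA, HNF and Hox factors, claudins and ribosomal protein genes had none, of 5, 6, 14, 15 and 65 with a peak. These shares stand beside 2.48% of all names and were not tested.

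Position was not used to choose the domains. A gene start of the GENCODE annotation lay within 1 kb of 332 of the 500 (66.4%) beside 13.5% of autosomal peaks and 62.2% of the next 500 by width. A wide peak reaches more starts by its width alone, so the distance was also taken from its centre: 216 domains (43.2%) had their centre within 1 kb of a gene start, beside 52.4% of the next 500 and 12.1% of autosomal peaks. By that measure the widest peaks stood closer to starts than autosomal peaks in general and were less often centred on them than the next 500. Exons were touched by 408 domains (81.6%, autosomal peaks 19.8%), 55 lay in introns only (11% beside 32.1%) and 37 touched no annotated gene (7.40% beside 48.1%). Protein-coding starts on both strands lay inside 31 domains (6.20%), 36 of the next 500 (7.20%) and 0.838% of autosomal peaks.

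The 332 domains at gene starts had a median WT signal of 206 per kb, and the 168 away from them 175 per kb. The same medians were 135 and 86.1 per kb over all autosomal peaks at and away from starts. Wide peaks away from starts were above the typical peak at a start, whose median width was 1350 bp. Width and signal share their reads, so this order is a description. A gene has a single start here, so that the 168 can include starts of its other transcripts. Of the 168, 80 touched an exon and 8 had a CG ratio above 0.6 with a GC content above 50%. Of the 168, 127 lay over 5 kb from any start, which is 25.4% of the domains and compares with 76.2% of autosomal peaks.

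Base composition differed with position. The ratio of observed to expected CG dinucleotides had a median of 0.42 in the domains, 0.44 in the next 500 and 0.16 in autosomal peaks, and GC content was 52.8, 53.2 and 47.6%. In domains at gene starts the ratio was 0.54, equal to its median in all autosomal peaks at starts (0.54), and in domains away from starts it was 0.22 beside 0.15. Repeat sequence took up 11% of the median domain and 16.5% of the median autosomal peak, and exceeded 50% in 5 domains.

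Motifs were counted in the central 300 bases of each peak on both strands, by exact match. CCGCCC, the GC box of SP and KLF factors, was in 133 of 500 domains (26.6%, autosomal peaks 10.6%), and CCGGAA, the ETS core, in 56 (11.2% beside 5.44%). Both were as frequent or more frequent in the next 500 (32.2% and 12.6%) and in autosomal peaks at gene starts (41.8% and 16.5%), beside 35.2% and 13.6% in domains at starts. Motifs of intestinal factors were less frequent than over autosomal peaks as a whole, where fewer peaks lie at gene starts. The CDX motif TTTATNG was in 8.20% beside 13.1%. The AGATAA motif, bound by GATA factors, was in 9.80% beside 16.4%. The HNF4 motif CAAAGTCCA was in 0.200% beside 1.29%. The AP-1 motif TGANTCA was in 7.20% beside 11.6% and CCAAT (NFY) in 25.2% beside 38.4%, whereas ATCAAAG (TCF) was in 5.00% beside 4.94%. Within position classes the gaps were smaller or turned, except those of AGATAA away from starts and of ATCAAAG. Away from starts TTTATNG was in 13.7% of domains beside 14.1% of autosomal peaks, AGATAA in 10.1% beside 17.7%, TGANTCA in 9.52% beside 12.4% and CAAAGTCCA in 0.595% beside 1.37%. At starts they were in 5.42% beside 6.88%, 9.64% beside 8.10%, 6.02% beside 6.17% and 0% beside 0.747%. In the 168 domains away from starts, ATCAAAG was in 15 (8.93%) beside 5.26% of autosomal peaks away from starts. A match gives the letters only, and the window covers a small part of each domain. None of these shares was tested.

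**Figure D3:**
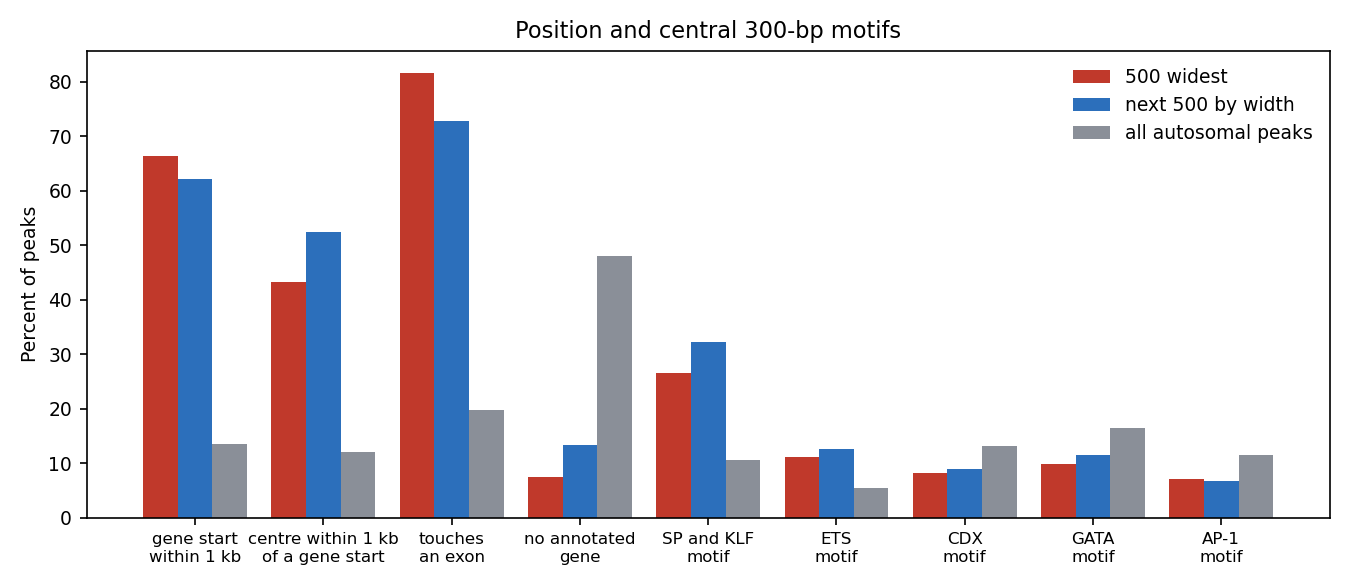
Percent of peaks (y axis) by position and by motifs in the central 300 bp, for the 500 widest, the next 500 by width and all autosomal peaks. Both wide classes stand apart from all autosomal peaks at gene starts (66.4 and 62.2% beside 13.5%), while the CDX, GATA and AP-1 motifs are lower in both without regard to position. At gene starts alone the GATA motif was in 9.64% of domains beside 8.10%.

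The comparison of KO with WT asked whether loss of Smarcad1 changes accessibility of these domains. None of the 500 was called by limma at an adjusted p below 0.05 (0% of all 123510 peaks), none had an unadjusted p below 0.05 (2.28% of all peaks), and the smallest unadjusted p among them was 0.18. In limma voom on recovered reads the counts were 0 and 1, beside 3 and 2947 (2.39%) of all 123510 peaks. The 3 KO values lay above the 3 WT values in 1 domain (0.200%, beside 2.70% of all peaks) and below them in none (beside 4.10%). That 1 domain was named for Gm11755, with log2 values of 9.10, 9.08 and 9.04 in WT and 9.19, 9.13 and 9.26 in KO, a difference of 0.12 (limma 95% interval -0.55 to 0.79). The gap between the groups was small beside the spread of most domains.

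The median log2 fold change of the domains was 0.02, beside -0.02 over all peaks, and 278 had a higher mean in KO (55.6%, autosomal peaks 46.9%). That direction rested on single libraries: 92.4% were higher in KO without KO2 (median 0.22), 11.4% without KO3 (median -0.18), 28.0% without WT2 (median -0.13) and 89.8% without WT3 (median 0.16), with no domain at an unadjusted p below 0.05 in any of these. Fold changes ran from -0.42 to 0.49 with an SD of 0.11 over the domains, beside 0.12 over the next 500 and 0.29 over autosomal peaks. Reads differ as well: the counting error alone of a difference had a median of 0.06 in the domains and 0.23 in autosomal peaks. The SD between libraries did not shrink in the same way, with a median of 0.31 in WT and 0.43 in KO over the domains and of 0.32 and 0.35 over autosomal peaks. The median half-width of the 95% interval was 0.77, and for 434 of the 500 the interval lay within a log2 of 1 on either side of 0. These widths hold for a fit that takes the libraries of a group as unrelated.

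**Figure D4:**
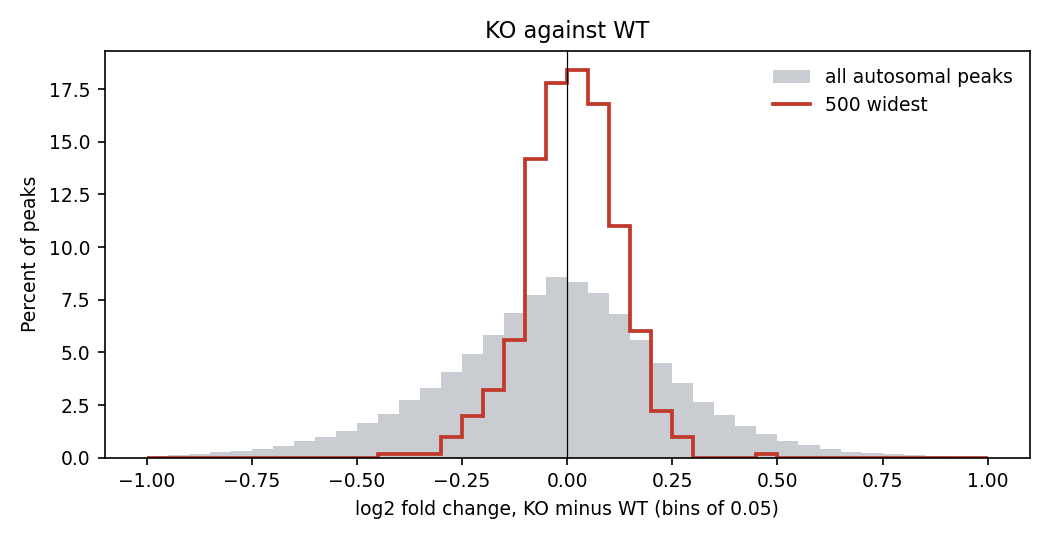
Share of peaks in each bin of log2 fold change, KO minus WT, for the 500 widest (red line) and all autosomal peaks (grey), with bins of 0.05 from -1 to 1. No domain and 0.436% of autosomal peaks lie outside the axis, and all domains lie between -0.42 and 0.49.

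The largest difference was at chr10:127149601-127153200, without a gene name and 56.7% repeat sequence. Its log2 values were 8.93, 9.09 and 9.23 in WT and 9.57, 9.14 and 9.99 in KO, a difference of 0.49 ± 0.35 (SE) at an adjusted p of 1.00 in limma. KO2 lay below WT3 there, and KO1 and KO3 above all WT values. Each KO library was above the WT library of the same number, and with the replicate number as a block limma gave an SE of 0.13 and an adjusted p of 0.064. Next in this direction came Mgat3, a glycosyltransferase (0.29), a domain at chr16:92952601-92956200 (0.26), the phosphate transporter Slc34a2 (0.27) and the growth factor receptor Fgfr2 (0.24).

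In the other direction, the domain in an intron of Ntm, a neural adhesion molecule, had log2 values of 8.33, 7.57 and 8.26 in WT and 7.88, 7.37 and 7.64 in KO, a difference of -0.42 ± 0.31 (SE). The groups overlapped, since WT2 lay below KO1 and KO3, and KO3 rested on 50 reads. Each KO library was below the WT library of the same number, and limma with the block gave an SE of 0.15 and an adjusted p of 0.40. C130026I21Rik (-0.35), a domain at chr14:81822001-81825600 (-0.28) and the chaperone Hspa8 (-0.26) were also in this direction, each with an SE of 0.305 to 0.338. The adjusted p was 1.00 in limma without the block for all of these domains.

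For the domains of known intestinal genes the same fit gave differences of 0.02 ± 0.40 for Elf3, 0.13 ± 0.37 for Cdx2, 0.03 ± 0.40 for Ets2, 0.19 ± 0.34 for Tcf7l2 and -0.13 ± 0.35 for Sp5 (log2, SE). Dll1 differed by 0.00 ± 0.33 and Ripk2 by -0.15 ± 0.49. The Ugt1a1 and Mroh2a domain had a difference of 0.09 with an SE of 0.53. That SE exceeds the spread of the 6 libraries (271 to 320 per kb), because limma moves each variance towards its trend over level.

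The share of all reads in peaks that fell in the domains was 2.99, 3.04 and 3.10% in WT1, WT2 and WT3 and 3.05, 2.90 and 3.24% in KO1, KO2 and KO3. The means were 3.04 ± 0.06% in WT and 3.06 ± 0.17% in KO (SD, n = 3), and the KO range enclosed the WT range. Without the domain of 59250 bp they were 2.92 ± 0.07% and 2.93 ± 0.20%.

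Differences between libraries of the same group were larger than those between groups. WT2 was the lowest WT library in 375 of the 500 domains (75%, autosomal peaks 63.2%) and KO2 the lowest KO library in 450 (90.0% beside 52.2%), while KO3 was the highest KO library in 479 (95.8% beside 55.7%). The log2 value of number 2 minus the mean of the other libraries of its group had a median of -0.44 in WT and -0.62 in KO over the domains, beside -0.32 and -0.22 over autosomal peaks. Over the 500 domains the WT and the KO differences had a Pearson r of 0.87 (0.41 over autosomal peaks), where all points share the same 6 libraries and their depths. Number 2 was lower in both groups in 418 domains (83.6%, autosomal peaks 55.1%) and higher in both in 21 (4.2% beside 13.0%). The domain of Anpep is 1 of these 21 (0.54 in WT, 0.92 in KO). At domains of gene starts the medians were -0.49 and -0.65, and away from starts -0.34 and -0.57. The low level was not limited to the domains. Over autosomal peaks the median log2 value was 5.63 in WT2 and 5.69 in KO2, beside 5.82 to 5.93 in the other libraries. As a share of reads in peaks, the domains took 3.04% in WT2, above WT1 (2.99%), and 2.90% in KO2, the lowest of KO. The labels give no batch, and what the number 2 libraries share was not tested.

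**Figure D5:**
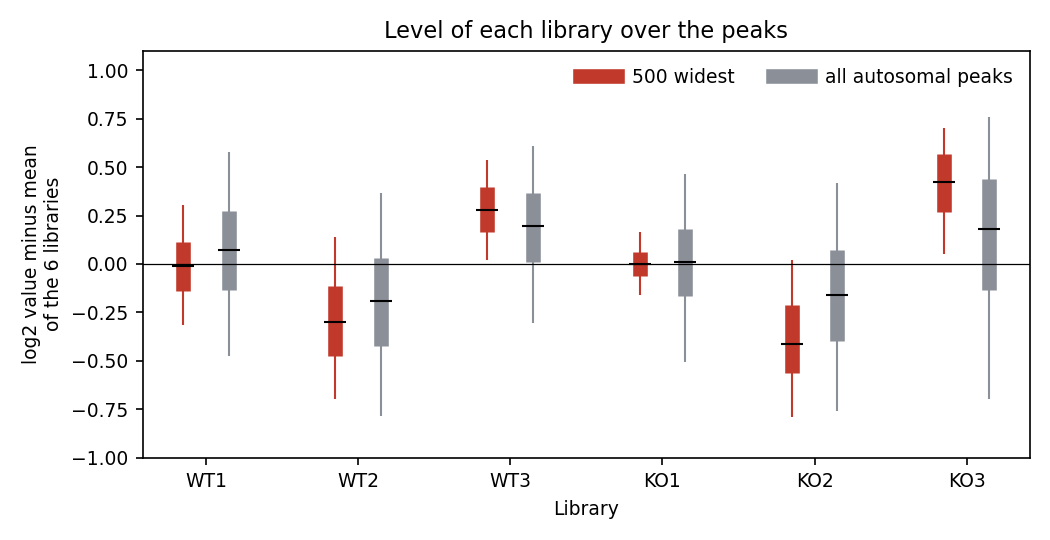
Log2 value of each library minus the mean of the 6 libraries, over the 500 widest domains (red) and all autosomal peaks (grey), with the median, quartiles (bars) and the 5th and 95th percentiles (lines). Over the domains WT2 and KO2 lie low (medians -0.30 and -0.41) and WT3 and KO3 high (0.28 and 0.42).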

How the data were processed

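ATAC-seq libraries came from 3 WT and 3 KO crypt preparations, with groups and replicate numbers taken from the sample titles. Per the submitters' processing notes, the authors trimmed reads with Trim Galore 0.4.1 and mapped them to GRCm38 with Bowtie2 2.2.5, and peaks were called with MACS in SeqMonk as a single set, where the libraries pooled for calling are not given in the sources used here. The values the authors deposited are log2 read counts per peak, scaled to the largest library. A second deposited table, of peaks past the authors' edgeR threshold with their p-values, was not used.

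On the linear scale each library's values were whole multiples of the value of 1 read (100% within a tolerance of 0.05), which gave reads in peaks. Since PCR copies cannot be told from separate molecules, depth-based errors reflect counting alone. KO was compared with WT by limma 3.58.1 in R 4.3.3 on the deposited log2 values of all 123510 peaks. The fit used lmFit and eBayes with a trend, two-sided, without covariates and with Benjamini-Hochberg adjustment. On the recovered reads, limma voom was run as an alternative, and the authors' edgeR test was not repeated. The limma fit without the block was tested beforehand on simulated data with changes larger than any in the domains. There the libraries varied independently, so the simulation does not cover the shared deviations of same-numbered libraries. Gene starts (a single start per gene record) and exons came from GENCODE mouse release M21, sequence and repeat masking from the RefSeq GRCm38 genome, and gene names from the authors' table. Alternatives were median-centred, trimmed-mean (trimming 0.3 on M and 0.05 on A), quantile and voom values, a pseudocount of 5, a minimum mean of 10, a replicate block, each library left out, autosomal peaks only, a threshold of 0.1, the 250 and 1000 widest peaks, gene start distances of 0.5 and 2 kb, and other summaries of signal.

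Named domains are the 10 widest, 5 on each side of the width threshold, the 10 strongest and 5 weakest per kb, genes naming 3 or more domains, the 5 smallest p-values in each direction and the genes of fixed lists. Genes of 2 domains, neighbouring pairs, genes held whole and Gm11755 were named after their values were seen. Some domains that the rule names are not reported here. The domains and lists were chosen with earlier results of these data known.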

Additional observations from a re-analysis of the deposited data

How the results depend on the processing

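No domain was called at 0.05 under any alternative run, and none at 0.1 without the block. With the replicate block, 1 passed an adjusted p of 0.1 (chosen after seeing the data). The count of domains at an unadjusted p below 0.05 was 1 with trimmed-mean scaling and 4 with quantile normalization (beside 2.59 and 3.12% of all peaks). It was 1 with voom and 9 with the replicate block (beside 2.39 and 6.87% of all peaks), and 0 in all other settings. Domains whose groups do not overlap numbered 3 after median-centring, 5 after trimmed-mean scaling and 17 after quantile normalization (7.88, 7.69 and 8.11% of all peaks), and 5 to 22 whichever library was left out, where fewer values make separation easier (11.2 to 20.7% of all peaks). The block gives no such count. The median log2 fold change stayed within 0.00 to 0.03 under other scalings but ran from -0.18 to 0.22 with a library left out, as the sign rests on single libraries. Of the 250 widest, 70.8% lay within 1 kb of a gene start. The directions of the domains with the smallest p-values held in the 130 recomputed values, with adjusted p-values of 0.064 to 1.00 in limma. These domains were picked by p from the same libraries, and the block and the minimum mean left their fold changes unmoved. The count is therefore no independent check. Deviations of same-numbered libraries from their group means correlated at 0.04, 0.42 and 0.41 over all peaks (0.39, 0.87 and 0.81 over the domains). Number 1 showed no pairing over all peaks and a weaker one than numbers 2 and 3 over the domains. Deviations from a group mean cancel within the group, so the 3 correlations are not independent. The labels do not say what a number marks. The block raised calls over all peaks from 0 to 272. The counting error of the domains was far below the spread between libraries.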
